A study of Mus musculus with 12 samples.

Results

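The 44 genes described here are interferon-stimulated genes and interferon-inducible GTPases, taken as a listed set from the 47643 genes of the deposited count table of mouse intestine. They were sorted by role into 21 antiviral effectors best known as targets of type I interferon, 3 cytosolic RNA sensors, 4 transcription factors, the chemokine Cxcl10, and 15 GTPases best known as targets of interferon gamma, of which 9 are guanylate-binding proteins (Gbp genes) and 6 are immunity-related GTPases (IRG genes: Igtp, Iigp1, Irgm1, Irgm2, Tgtp1 and Tgtp2). All 44 passed the filter on low counts and were tested.

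The study measured bulk total RNA of intestine from male C57BL/6 mice aged 7 to 8 weeks, in 4 groups of 3 libraries that cross genotype with diet. Pparafl/fl mice, which carry floxed alleles of the fatty acid sensing nuclear receptor Ppara and are the WT of the sample titles, are called floxed here. PparaΔIE mice, the KO of the titles, are called knockout; the mark ΔIE is the usual sign for loss from the intestinal epithelium. Each genotype was fed chow or a 60% high-fat diet (HFD) for 10 days. The labels name neither the recombinase line that drives the deletion nor the stretch of intestine taken. Whether each library is its own mouse is likewise not stated; the p-values below reflect library-to-library spread, which may be technical.

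Interferons are secreted alarm proteins. Type I interferons (alpha and beta) and type III interferons (lambda), the latter acting mainly on epithelium, signal through a complex with Stat2 and Irf9 that binds interferon-stimulated response elements, while interferon gamma, made chiefly by T cells and natural killer cells, acts through gamma-activated sites and through the factor Irf1 that it induces. The gut keeps part of this programme switched on without infection, and the GTPases it induces attack the membranes that shelter bacteria and parasites inside cells.

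RefSeq promoter windows of the GRCm38.p6 build, from 250 bases before to 50 bases after each start site, were at hand for 32 of the 44 members, in 37 windows. GAAA, any 2 bases and GAAA again, on either strand, mark a response element, and TTCNNNGAA, which reads the same on both strands, marks a gamma-activated site. The 120 bases before the start site are shown for 3 IRG genes and 2 Gbp genes that were lower on HFD in both genotypes, for Irf1, and for the type I effectors Isg15 and Oas1a, to let both kinds of promoter be compared, with matches in capitals, 5′ to 3′.
Igtp, chr11:58199436-58199555, plus strand: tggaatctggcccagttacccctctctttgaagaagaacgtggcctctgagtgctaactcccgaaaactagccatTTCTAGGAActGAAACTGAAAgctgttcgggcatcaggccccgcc
Irgm2, chr11:58214857-58214976, plus strand: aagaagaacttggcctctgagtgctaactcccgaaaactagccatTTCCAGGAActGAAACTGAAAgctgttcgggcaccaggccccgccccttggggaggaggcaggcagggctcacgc
Tgtp1, chr11:48992247-48992366, minus strand: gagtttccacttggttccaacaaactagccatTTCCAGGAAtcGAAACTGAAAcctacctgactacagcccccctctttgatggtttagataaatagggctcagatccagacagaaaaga
Gbp2, chr3:142620543-142620662, plus strand: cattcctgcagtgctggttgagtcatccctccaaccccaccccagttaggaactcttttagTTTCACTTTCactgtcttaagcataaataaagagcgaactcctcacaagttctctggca
Gbp7, chr3:142530216-142530335, plus strand: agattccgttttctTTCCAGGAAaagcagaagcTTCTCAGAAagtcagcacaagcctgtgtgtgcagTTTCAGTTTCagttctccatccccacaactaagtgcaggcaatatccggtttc
Irf1, chr11:53769894-53770013, plus strand: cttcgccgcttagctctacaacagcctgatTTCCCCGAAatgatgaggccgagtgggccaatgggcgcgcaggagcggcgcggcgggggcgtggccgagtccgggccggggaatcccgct
Isg15, chr4:156200819-156200938, minus strand: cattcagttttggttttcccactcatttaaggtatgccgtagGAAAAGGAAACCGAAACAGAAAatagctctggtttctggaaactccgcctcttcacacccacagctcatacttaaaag
Oas1a, chr5:120907526-120907645, minus strand: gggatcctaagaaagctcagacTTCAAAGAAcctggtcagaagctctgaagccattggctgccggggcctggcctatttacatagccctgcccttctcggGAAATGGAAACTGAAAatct

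In Igtp, Irgm2 and Tgtp1 a gamma-activated site letter pattern stands directly before a response element pattern, with first bases 11 apart. The pair begins 45 bases before the start site in Igtp, 75 in Irgm2 and 88 in Tgtp1. Tgtp2, a near copy of Tgtp1, has the same arrangement 81 bases before its start. Of all 32851 promoter windows, 5 (0.0152%) hold this spacing, and the only gene among them outside the members is Gm12185. Exons of Gm12185 overlap those of Tgtp1, and it is in the list of interferon gamma targets outside the members. The spacing counted is the one seen in these related IRG genes, so its share is no test of it. Gbp2 carries the response element on the other strand, 59 bases before the start, Isg15 has 3 overlapping matches, and Irf1 has a gamma-activated site alone. The pair is not in every IRG gene lower on HFD in both genotypes. Irgm1, not shown above, has 2 response element patterns and no gamma site pattern in its window, and Iigp1 had no window at hand.

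The response element pattern was found in 24 of the 37 member windows (64.9%, in 23 of 32 genes) against 3.44% of all windows. TTCNNNGAA was found in 29.7% of member windows against 8.30% of all, and both patterns in 24.3% against 0.454%, overlapping in 1 member window. Among the GTPases, 9 of 9 genes with a window held the response element and 6 of these also the gamma site. Of 16 type I effectors with a window, 10 held the response element, 4 the gamma site and 3 both. These counts describe letters, not binding. Members that did not pass in either diet comparison held them too: Gbp5 has 1 response element and 2 gamma site patterns. Ifi44, Oasl1, Oasl2, Xaf1, Herc6, Irf7 and Irf9 have neither in their windows.

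Total expected counts ran from 33621040 to 53959405 per library. Before the TMM scaling described under processing, 1 CPM (a count scaled to the library's total) thus stands for 33.6 to 54 counts. Ppara, the targeted gene, ran from 18.1 to 22.0 CPM in floxed chow, 8.42 to 15.6 in knockout chow, 33.7 to 39.3 in floxed HFD and 11.1 to 17.3 in knockout HFD libraries, so the groups did not overlap on either diet; the log2 fold change, knockout against floxed, was -0.68 (SE 0.21, adjusted p = 0.25) on chow and -1.46 (SE 0.21, adjusted p = 0.031) on HFD. The enterocyte marker list summed to 24101 to 30100 CPM in all libraries, and some of its genes differed between diets. Floxed chow 1 and knockout chow 3 stood apart in another way: over 17 immunoglobulin V genes, whose use differs between animals, floxed chow 1 correlated at 0.923 and 0.948 with libraries 2 and 3, which correlated at 0.786 with each other, and knockout chow 3 at 0.903 and 0.897 with libraries 1 and 2, against 0.657 between those. Whether these 2 libraries are independent of their groups was not tested. For 39 of 44 members the value of knockout chow 3 lay between a higher library 1 and a lower library 2.

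The proximal small intestine score, a mean of centred log2 levels of genes of the upper small intestine, was -0.994 to -0.899 in floxed chow and 0.079 to 0.886 in floxed HFD libraries. In floxed mice diet and this score cannot be told apart. In knockout chow it was -1.287, 0.575 and 0.298, and in knockout HFD -0.047, 1.028 and 0.562, so that knockout chow 2 and 3 lay inside the HFD range.

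The design asks how the members differ with diet in each genotype and with genotype on each diet. Members were lower on HFD, and none passed between genotypes. On HFD, 30 of the 44 members were lower in floxed mice and none higher, against 6.57% lower and 6.80% higher of all 17602 genes tested (edgeR quasi-likelihood test, Benjamini-Hochberg adjusted p under 0.05 over all genes). In knockout mice 17 were lower and none higher, against 4.76% lower and 3.44% higher of all genes. All 17 were among the 30. Of the 15 GTPases, 12 were lower in floxed and 8 in knockout mice, with a median log2 fold change of -1.41 and -1.36. Of the 21 type I effectors, 13 and 7 were lower, with medians of -0.90 and -0.61, and the median of all genes was 0.01 in each genotype. The difference between both classes was not tested. In what follows a change is the fitted log2 fold change, HFD against chow, unless named otherwise. In bulk RNA, fewer cells of a type and less RNA per cell cannot be told apart.

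These counts moved with single libraries. The floxed count ran from 18 (without floxed chow 3) to 33 over fits that left out 1 library each, and the knockout count from 10 (without knockout chow 3) to 28 (without knockout chow 2), with 11 without knockout chow 1 or knockout HFD 1. Without both floxed chow 1 and knockout chow 3 they were 16 and 6. DESeq2 called 33 and 29 lower. With the proximal score as a covariate, 1 member (Ifit2) was lower in floxed mice, where all genes gave 25 lower calls, and 11 in knockout mice, where they gave 380. Every HFD library lay below every chow library for 37 members in floxed mice (18.6% of all genes) and for 30 in knockout mice (13.1% of all genes), 29 of them in both. At least 2-fold lower by the fit were 20 members in floxed and 13 in knockout mice, against 1.89% and 1.72% of all genes.

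**Figure D1:**
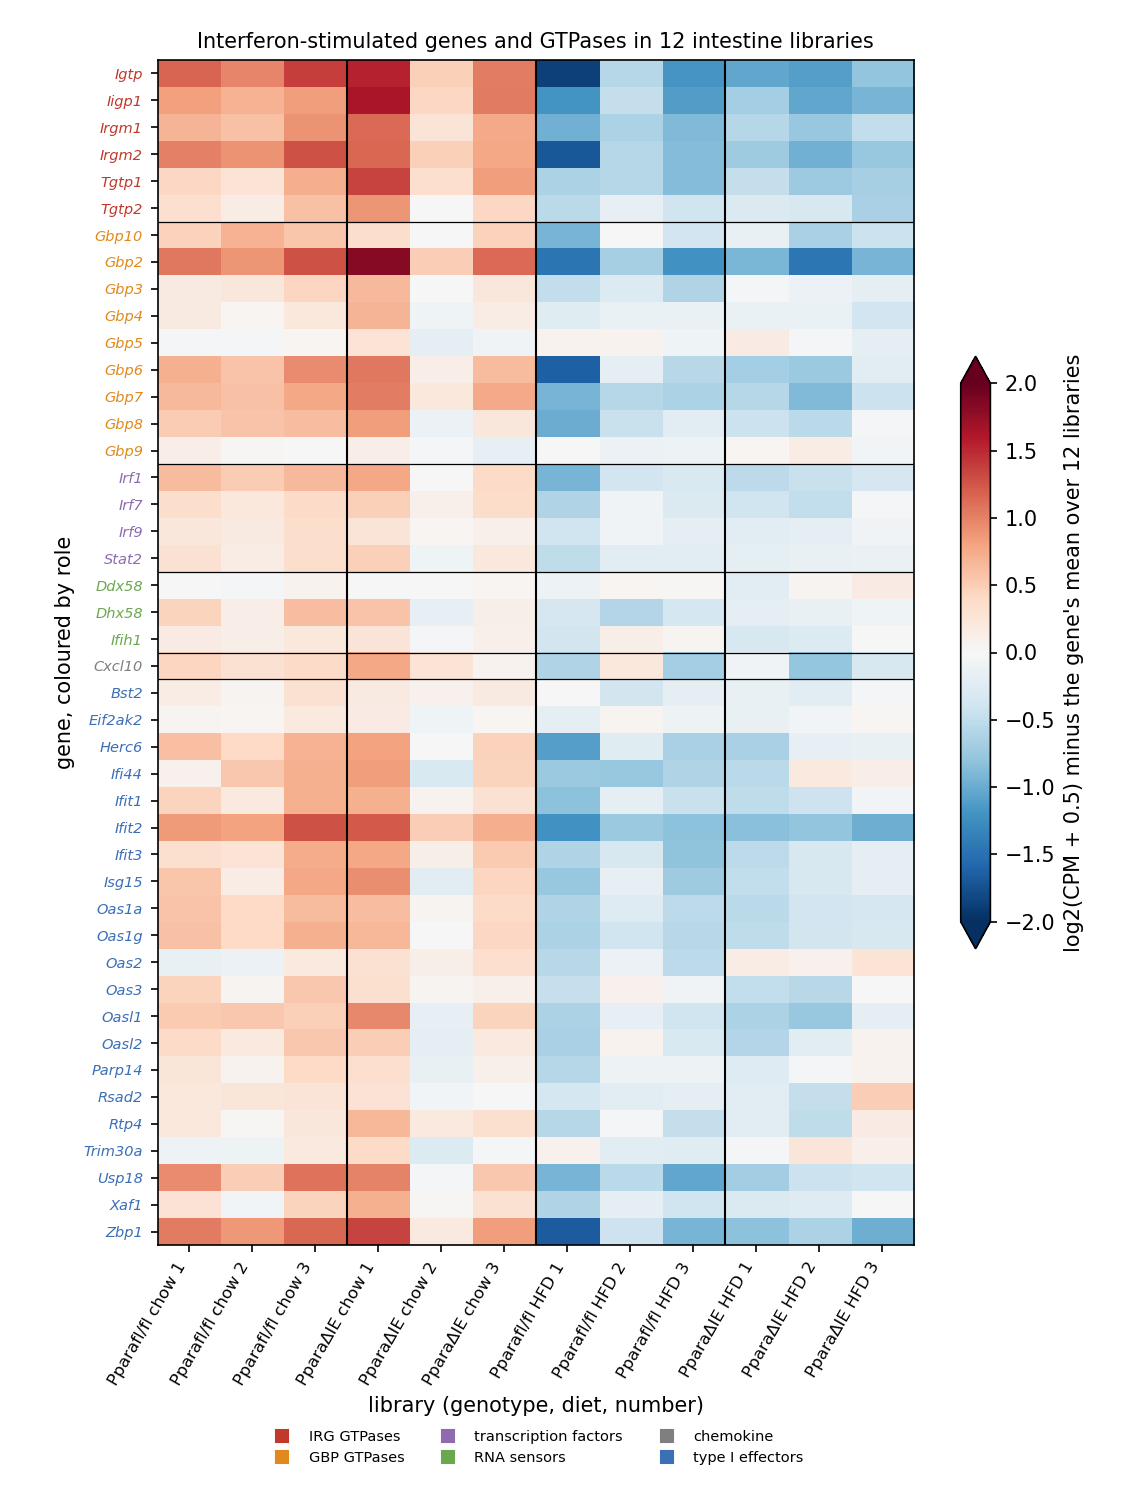
Each row is a member, coloured by role, and each column a library; colour gives log2(CPM + 0.5) minus the gene's mean over the 12 libraries. The chow libraries are red and the HFD libraries blue for most rows; knockout (PparaΔIE) chow 2 is paler than its group, and Gbp5, Gbp9 and Ddx58 show little of the diet pattern.

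The IRG GTPases were the most uniform class: all 6 fell on HFD in both genotypes, with a median log2 fold change of -1.67 in floxed and -1.68 in knockout mice. Igtp (chr11:58199556-58207591, plus strand), a regulator that guards the cell's own membranes, fell most among them in floxed mice. For Igtp the floxed libraries gave 72.9, 64.0 and 84.9 CPM on chow and 8.53, 21.6 and 14 CPM on HFD, and the knockout libraries 94.6, 45.1 and 66.1 CPM on chow and 15.4, 14.8 and 18.6 CPM on HFD. Every HFD library lay below every chow library of either genotype, and floxed HFD 1 was the lowest of all. The log2 fold change was -2.33 (SE 0.36, adjusted p = 0.0051) in floxed and -2.08 (SE 0.35, adjusted p = 0.011) in knockout mice, a fitted 5.02-fold and 4.22-fold lower level.

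Irgm2, whose annotated exons partly overlap those of Igtp on chromosome 11, is a second regulator of the same kind. In transcripts, 11.8% of the 50-base stretches of Igtp occur in Irgm2, and 6.79% of those of Irgm2 occur in Igtp. Their levels are therefore not fully separate readings. Irgm2 stood at 69.7, 64.5 and 83.6 CPM on chow and 10.3, 23.1 and 18.7 CPM on HFD in floxed mice, and at 76.9, 47.9 and 59.1 and then 20.9, 17.4 and 20.2 CPM in knockout mice. It was 4.19-fold lower in floxed and 3.15-fold lower in knockout mice, with log2 fold changes of -2.07 (SE 0.27, adjusted p = 0.0023) in floxed and -1.65 (SE 0.27, adjusted p = 0.0087) in knockout mice. Floxed HFD 1 was its lowest library, as it was for Igtp, and for 33 of 44 members floxed HFD 1 was the lowest of its group. Irgm1, the third regulator, was steadier among HFD libraries. The floxed libraries held 81.7, 76.5 and 95.3 CPM of Irgm1 on chow and 26.1, 32.9 and 27.3 CPM on HFD, the knockout libraries 112, 61.1 and 86.4 and 34.3, 29.9 and 36.3 CPM. Its log2 fold change was -1.55 (SE 0.19, adjusted p = 0.00097) in floxed and -1.37 (SE 0.19, adjusted p = 0.0027) in knockout mice.

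Iigp1 and the Tgtp pair are effector IRG proteins, which load onto pathogen vacuoles. On chow, Iigp1 reached 16.6, 15.2 and 16.7 CPM among floxed libraries and 29.6, 12.4 and 19.4 CPM among knockout libraries, and on HFD it reached 3.73, 6.43 and 3.93 and 5.5, 4.19 and 4.56 CPM. Knockout chow 1 was its highest library, and the diet groups did not overlap in either genotype. The log2 fold change was -1.78 (SE 0.30, adjusted p = 0.0052) in floxed and -2.11 (SE 0.30, adjusted p = 0.004) in knockout mice.

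Levels of Tgtp1 were 5.20, 4.66 and 6.55 CPM in floxed chow, 2.26, 2.36 and 1.83 CPM in floxed HFD, 10.4, 4.87 and 7.09 CPM in knockout chow and 2.56, 2.08 and 2.20 CPM in knockout HFD libraries. Here too the highest value came from knockout chow 1. Tgtp2 measured 10.1, 8.81 and 12.1 CPM in floxed chow libraries 1 to 3 and 5.29, 7.05 and 5.89 CPM in floxed HFD libraries, and 15, 7.90 and 10.7 CPM in knockout chow and 6.39, 6.25 and 4.89 CPM in knockout HFD libraries. Their log2 fold changes were -1.35 (SE 0.24, adjusted p = 0.0035) in floxed and -1.71 (SE 0.24, adjusted p = 0.0015) in knockout mice for Tgtp1, and -0.77 (SE 0.21, adjusted p = 0.027) in floxed and -0.93 (SE 0.21, adjusted p = 0.018) in knockout mice for Tgtp2. The 2 genes are near copies: 81.2% of the 50-base stretches of Tgtp1 transcripts and 86.6% of those of Tgtp2 occur in other genes, mostly in each other, so the split of counts between them is uncertain.

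The guanylate-binding proteins, which coat bacteria and vacuoles and help trigger inflammasomes, were mixed. In floxed mice 6 of 9 were lower and in knockout mice 2 of 9, with medians of -1.13 and -0.72. Gbp2 (chr3:142620602-142638008) fell most. For Gbp2 the floxed libraries gave 43.0, 37.8 and 49.6 CPM on chow and 7.06, 12.6 and 8.48 CPM on HFD, and the knockout libraries 72.7, 28.9 and 45.2 CPM on chow and 10.5, 7.15 and 10.4 CPM on HFD. The spread on chow was far wider in the knockout group (48.9 ± 22.2 CPM, mean ± SD, n = 3) than in the floxed group (43.5 ± 5.90), yet no HFD library reached the lowest chow library. Its log2 fold change was -2.21 (SE 0.35, adjusted p = 0.0055) in floxed and -2.39 (SE 0.35, adjusted p = 0.0067) in knockout mice, or 4.63-fold and 5.23-fold lower.

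Gbp7 was the other Gbp gene lower in both genotypes. Gbp7 stood at 26.6, 25.5 and 29.1 CPM on chow and 8.62, 11.2 and 10.7 CPM on HFD in floxed mice, and at 34.6, 19.5 and 28.7 and then 11.1, 8.89 and 12.3 CPM in knockout mice. Its log2 fold changes were -1.41 (SE 0.19, adjusted p = 0.001) in floxed and -1.36 (SE 0.19, adjusted p = 0.0021) in knockout mice. Gbp3, next to it on chromosome 3, had a smaller fold change. The floxed libraries held 6.59, 6.81 and 7.93 CPM of Gbp3 on chow and 3.93, 4.66 and 3.65 CPM on HFD, the knockout libraries 9.30, 5.82 and 6.85 and 5.64, 5.29 and 4.95 CPM. The change was -0.80 (SE 0.16, adjusted p = 0.0067) in floxed and -0.47 (SE 0.16, adjusted p = 0.088) in knockout mice, so that it passed in floxed mice alone.

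Of the Gbp cluster on chromosome 5, Gbp6, Gbp8 and Gbp10 were lower in floxed mice. On chow, Gbp6 reached 38.7, 34.9 and 45.3 CPM among floxed libraries and 48.9, 25.8 and 36.4 CPM among knockout libraries, and on HFD it reached 7.23, 20.4 and 15.7 and 14.4, 13.8 and 20.0 CPM. The log2 fold change of Gbp6 was -1.46 (SE 0.36, adjusted p = 0.031) in floxed and -1.21 (SE 0.36, adjusted p = 0.077) in knockout mice, and floxed HFD 1 was its lowest library. Levels of Gbp8 were 14.1, 14.6 and 15.1 CPM in floxed chow, 4.62, 7.02 and 8.32 CPM in floxed HFD, 17.7, 8.90 and 11.5 CPM in knockout chow and 7.11, 6.53 and 9.60 CPM in knockout HFD libraries. For Gbp8 the change was -1.13 (SE 0.26, adjusted p = 0.017) in floxed and -0.72 (SE 0.26, adjusted p = 0.11) in knockout mice, and knockout chow 2 overlapped with the HFD libraries.

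Gbp10 was the least abundant member. Gbp10 measured 0.935, 1.19 and 1.04 CPM in floxed chow libraries 1 to 3 and 0.0497, 0.546 and 0.3 CPM in floxed HFD libraries, and 0.826, 0.553 and 0.936 CPM in knockout chow and 0.445, 0.169 and 0.275 CPM in knockout HFD libraries. Its log2 fold change was -1.81 (SE 0.49, adjusted p = 0.025) in floxed and -1.36 (SE 0.51, adjusted p = 0.11) in knockout mice, the widest errors of any member. Of its transcripts' 50-base stretches, 84.1% occur in other genes, mostly Gbp6, and 70.7% of those of Gbp6 in other genes, mostly the overlapping Gm43302, so both levels are uncertain.

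Gbp4, Gbp5 and Gbp9 did not pass in either genotype. For Gbp5 the floxed libraries gave 2.60, 2.55 and 2.73 CPM on chow and 2.81, 2.80 and 2.45 CPM on HFD, and the knockout libraries 3.28, 2.29 and 2.48 CPM on chow and 3.03, 2.59 and 2.26 CPM on HFD. The groups of Gbp5 overlapped throughout, with log2 fold changes of 0.03 (SE 0.17, adjusted p = 0.92) in floxed and -0.03 (SE 0.17, adjusted p = 0.94) in knockout mice. Gbp9 gave -0.14 (SE 0.11, adjusted p = 0.46) in floxed and 0.06 (SE 0.11, adjusted p = 0.78) in knockout mice. For Gbp4, whose HFD libraries lay below the chow libraries in each genotype, the values were -0.34 (SE 0.16, adjusted p = 0.19) in floxed and -0.53 (SE 0.17, adjusted p = 0.064) in knockout mice. Gbp5 lies in the same cluster on chromosome 3 as Gbp2, Gbp3 and Gbp7.

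**Figure D2:**
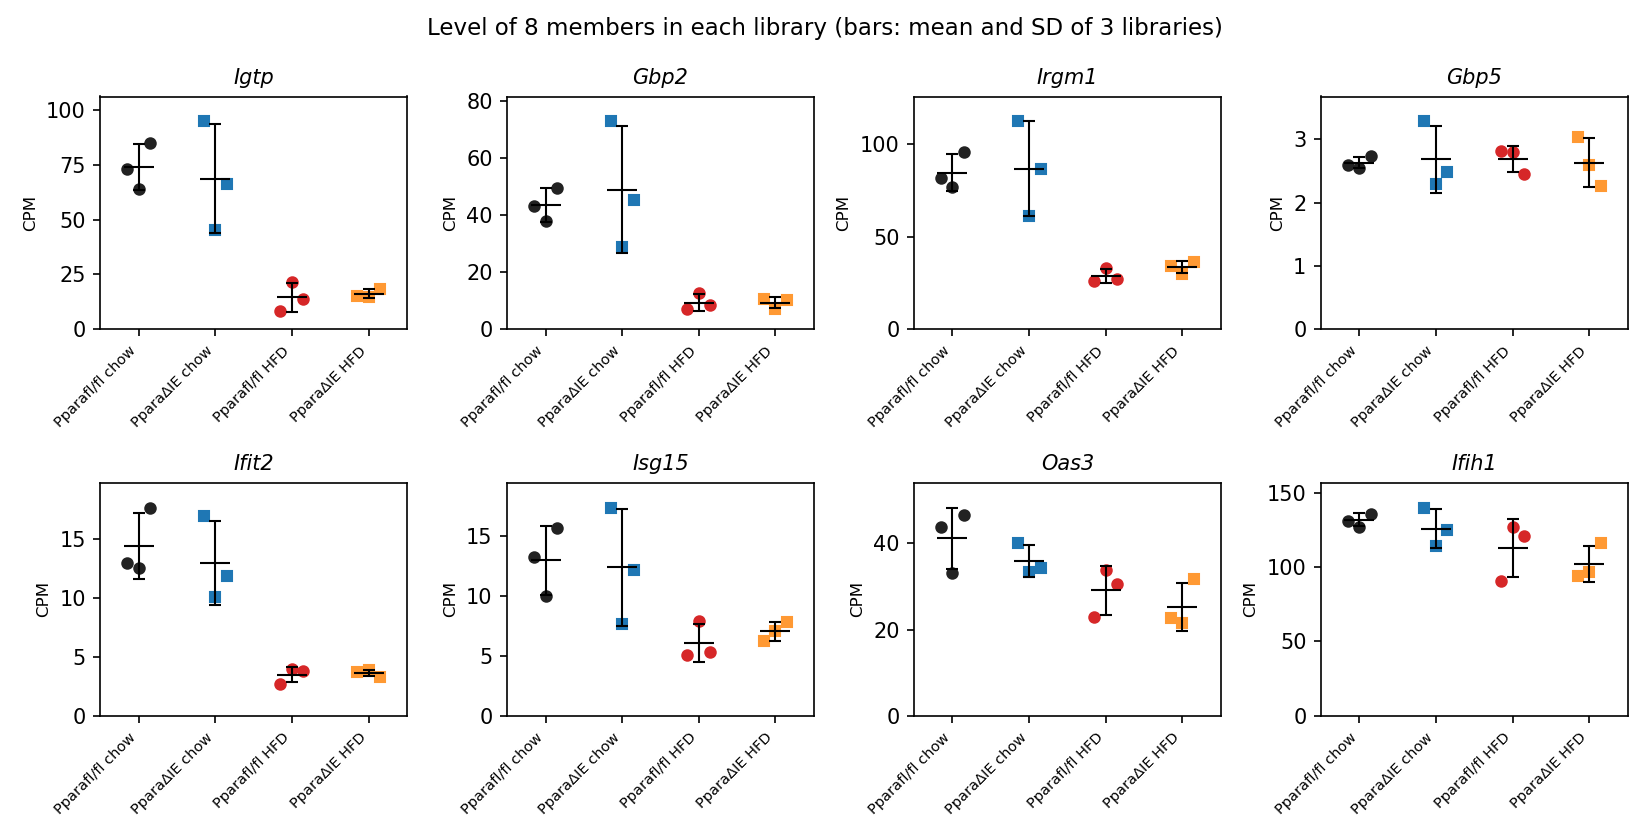
CPM of 8 members in each library, by group, with the mean and SD of 3 libraries. Igtp, Gbp2, Irgm1 and Ifit2 fall on HFD in both genotypes without overlap, Isg15 overlaps in the knockout (PparaΔIE) groups, Gbp5 runs from 2.26 to 3.28 CPM with all groups overlapping, and Oas3 and Ifih1 did not pass.

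Among the 21 type I effectors, 13 were lower on HFD in floxed and 7 in knockout mice. The Ifit genes encode antiviral proteins, of which Ifit1 seizes foreign RNA by its cap. Ifit2 (chr19:34550694-34576419) had the smallest p-value of all members in both genotypes. Ifit2 stood at 13, 12.6 and 17.7 CPM on chow and 2.73, 3.99 and 3.76 CPM on HFD in floxed mice, and at 17, 10.1 and 11.9 and then 3.72, 3.85 and 3.30 CPM in knockout mice. The HFD libraries lay within 2.73 to 3.99 CPM, well under every chow library. The log2 fold change was -2.05 (SE 0.20, adjusted p = 0.0002) in floxed and -1.84 (SE 0.21, adjusted p = 0.00048) in knockout mice, or 4.14-fold and 3.58-fold lower.

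The floxed libraries held 49.7, 41.7 and 59.6 CPM of Ifit1 on chow and 20.3, 31.9 and 26.5 CPM on HFD, the knockout libraries 59.9, 38.1 and 45.1 and 25.4, 27.2 and 35.1 CPM. Ifit1 passed in floxed mice alone, with -0.94 (SE 0.21, adjusted p = 0.018) in floxed and -0.71 (SE 0.21, adjusted p = 0.069) in knockout mice. On chow, Ifit3 reached 10.1, 9.70 and 13.6 CPM among floxed libraries and 14, 8.69 and 11.7 CPM among knockout libraries, and on HFD it reached 5.07, 6.25 and 4.34 and 5.39, 6.27 and 7.00 CPM. Ifit3 passed in both, with -1.1 (SE 0.19, adjusted p = 0.0034) in floxed and -0.88 (SE 0.19, adjusted p = 0.015) in knockout mice, though 51.2% of its 50-base stretches also occur in Ifit3b. No HFD library of either gene reached a chow library of its genotype.

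The Oas genes encode enzymes that make short oligoadenylates, the signal that activates RNase L. Levels of Oas1a were 50, 44.3 and 52.3 CPM in floxed chow, 21.9, 28.2 and 23.3 CPM in floxed HFD, 51.9, 35.1 and 43.9 CPM in knockout chow and 22.9, 25.7 and 26.6 CPM in knockout HFD libraries. Oas1g measured 25.8, 22.7 and 28.3 CPM in floxed chow libraries 1 to 3 and 10.8, 12.8 and 11.4 CPM in floxed HFD libraries, and 27.2, 17.1 and 22.9 CPM in knockout chow and 11.8, 13.1 and 13.5 CPM in knockout HFD libraries. Every HFD library of both genes lay below every chow library, with log2 fold changes of -1.0 (SE 0.13, adjusted p = 0.00069) in floxed and -0.80 (SE 0.13, adjusted p = 0.004) in knockout mice for Oas1a, and -1.13 (SE 0.14, adjusted p = 0.00043) in floxed and -0.80 (SE 0.14, adjusted p = 0.005) in knockout mice for Oas1g. They share 57.6% and 45.7% of their 50-base stretches with other genes, mostly each other.

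Oas2 and Oas3 did not pass, with -0.48 (SE 0.20, adjusted p = 0.12) in floxed and -0.10 (SE 0.20, adjusted p = 0.8) in knockout mice for Oas2, and -0.50 (SE 0.18, adjusted p = 0.09) in floxed and -0.51 (SE 0.18, adjusted p = 0.11) in knockout mice for Oas3. Of the Oas-like genes, Oasl1, which restrains the translation of Irf7, passed in both genotypes. For Oasl1 the floxed libraries gave 84.6, 86.1 and 82.4 CPM on chow and 38.0, 52.8 and 44.6 CPM on HFD, and the knockout libraries 115, 52.5 and 80.3 CPM on chow and 37.7, 34.7 and 52.1 CPM on HFD. Its change was -0.90 (SE 0.26, adjusted p = 0.048) in floxed and -0.99 (SE 0.26, adjusted p = 0.048) in knockout mice. Oasl2 gave -0.65 (SE 0.23, adjusted p = 0.089) in floxed and -0.42 (SE 0.23, adjusted p = 0.29) in knockout mice.

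Isg15 is a ubiquitin-like protein joined to other proteins, Herc6 is its main mouse ligase, and Usp18 removes it and damps the type I receptor. Isg15 stood at 13.3, 9.99 and 15.7 CPM on chow and 5.10, 7.89 and 5.29 CPM on HFD in floxed mice, and at 17.4, 7.66 and 12.2 and then 6.22, 7.06 and 7.86 CPM in knockout mice. In the knockout groups 1 chow library, at 7.66 CPM, lay under the highest HFD library. The log2 fold change was -1.1 (SE 0.28, adjusted p = 0.028) in floxed and -0.82 (SE 0.28, adjusted p = 0.1) in knockout mice.

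The floxed libraries held 13.5, 9.68 and 15 CPM of Usp18 on chow and 3.31, 4.49 and 3.05 CPM on HFD, the knockout libraries 14, 6.61 and 10.1 and 3.97, 4.90 and 5.04 CPM. Usp18 fell in both genotypes, with log2 fold changes of -1.82 (SE 0.26, adjusted p = 0.0017) in floxed and -1.14 (SE 0.26, adjusted p = 0.021) in knockout mice. On chow, Herc6 reached 33.7, 29.2 and 36.1 CPM among floxed libraries and 39.0, 22.1 and 30.6 CPM among knockout libraries, and on HFD it reached 10.1, 18.6 and 14 and 14, 19.8 and 19.9 CPM. Herc6 gave -1.22 (SE 0.25, adjusted p = 0.013) in floxed and -0.77 (SE 0.25, adjusted p = 0.087) in knockout mice, with no overlap of the diet groups in either genotype.

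Zbp1, a sensor of Z-form nucleic acid that can start necroptosis, was among the largest changes. Levels of Zbp1 were 54.9, 48.6 and 59.3 CPM in floxed chow, 7.98, 19.8 and 13.7 CPM in floxed HFD, 68.1, 30.5 and 47.9 CPM in knockout chow and 14.8, 16.9 and 13.2 CPM in knockout HFD libraries. Floxed HFD 1, at 7.98 CPM, was the lowest library, and all HFD libraries were below all chow libraries. The log2 fold change was -1.98 (SE 0.35, adjusted p = 0.0089) in floxed and -1.71 (SE 0.35, adjusted p = 0.022) in knockout mice, or 3.93-fold and 3.27-fold lower.

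Ifi44, Xaf1, a promoter of apoptosis, and Parp14, an ADP-ribosyltransferase, passed in floxed mice alone. Ifi44 measured 2.24, 3.24 and 3.71 CPM in floxed chow libraries 1 to 3 and 1.04, 1.02 and 1.20 CPM in floxed HFD libraries, and 4.08, 1.58 and 2.99 CPM in knockout chow and 1.28, 2.45 and 2.32 CPM in knockout HFD libraries. The change of Ifi44 was -1.50 (SE 0.33, adjusted p = 0.011) in floxed and -0.52 (SE 0.32, adjusted p = 0.34) in knockout mice. For Xaf1 the floxed libraries gave 7.37, 5.68 and 8.24 CPM on chow and 3.73, 5.19 and 4.36 CPM on HFD, and the knockout libraries 9.97, 6.00 and 7.43 CPM on chow and 4.78, 4.87 and 5.99 CPM on HFD. Parp14 stood at 243, 216 and 271 CPM on chow and 139, 191 and 193 CPM on HFD in floxed mice, and at 261, 185 and 222 and then 172, 201 and 217 CPM in knockout mice. Xaf1 gave -0.68 (SE 0.19, adjusted p = 0.031) in floxed and -0.58 (SE 0.19, adjusted p = 0.076) in knockout mice, and Parp14 -0.48 (SE 0.15, adjusted p = 0.047) in floxed and -0.18 (SE 0.15, adjusted p = 0.49) in knockout mice.

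The remaining effectors did not pass in either genotype. Rsad2, the antiviral enzyme viperin, gave -0.51 (SE 0.20, adjusted p = 0.11) in floxed and -0.11 (SE 0.20, adjusted p = 0.79) in knockout mice. Rtp4 gave -0.54 (SE 0.19, adjusted p = 0.08) in floxed and -0.61 (SE 0.19, adjusted p = 0.067) in knockout mice. Bst2, the tether that holds budding virions, gave -0.38 (SE 0.12, adjusted p = 0.051) in floxed and -0.30 (SE 0.12, adjusted p = 0.14) in knockout mice. Trim30a gave -0.12 (SE 0.16, adjusted p = 0.65) in floxed and 0.06 (SE 0.16, adjusted p = 0.87) in knockout mice, and Eif2ak2, the RNA-activated kinase that halts translation, -0.17 (SE 0.09, adjusted p = 0.22) in floxed and -0.10 (SE 0.09, adjusted p = 0.51) in knockout mice. With Oas2, Oas3 and Oasl2 these make up the 8 effectors that did not pass in floxed mice.

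All 4 transcription factors were lower in floxed mice, with a median of -0.60, and 2 of 4 in knockout mice, with a median of -0.50. Irf1, the factor that relays interferon gamma, had the highest level per length of all members. The floxed libraries held 301, 278 and 306 CPM of Irf1 on chow and 102, 150 and 157 CPM on HFD, the knockout libraries 332, 194 and 255 and 135, 143 and 154 CPM. Every HFD library lay below every chow library, and the log2 fold change was -1.12 (SE 0.19, adjusted p = 0.0043) in floxed and -0.86 (SE 0.19, adjusted p = 0.02) in knockout mice. On chow, Irf7 reached 139, 126 and 143 CPM among floxed libraries and 152, 117 and 140 CPM among knockout libraries, and on HFD it reached 71.4, 104 and 88.8 and 82.8, 77.1 and 107 CPM. Irf7, which amplifies type I production, changed by -0.63 (SE 0.15, adjusted p = 0.016) in floxed and -0.62 (SE 0.15, adjusted p = 0.024) in knockout mice.

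Stat2 and Irf9 are parts of the complex that carries the type I signal to the nucleus. Levels of Stat2 were 65.6, 58.8 and 68.0 CPM in floxed chow, 37.5, 45.8 and 46.1 CPM in floxed HFD, 74.3, 50.3 and 61.7 CPM in knockout chow and 46.9, 47.8 and 48.4 CPM in knockout HFD libraries. Irf9 measured 40.8, 39.4 and 44.4 CPM in floxed chow libraries 1 to 3 and 26.2, 33.2 and 30.3 CPM in floxed HFD libraries, and 41.8, 35.6 and 37.4 CPM in knockout chow and 30.0, 30.2 and 33.0 CPM in knockout HFD libraries. Their log2 fold changes were -0.57 (SE 0.12, adjusted p = 0.008) in floxed and -0.38 (SE 0.12, adjusted p = 0.065) in knockout mice for Stat2, and -0.48 (SE 0.09, adjusted p = 0.0052) in floxed and -0.30 (SE 0.09, adjusted p = 0.058) in knockout mice for Irf9. The diet groups of both did not overlap in either genotype.

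Of the RNA sensors, 1 of 3 passed in floxed and 0 of 3 in knockout mice. Dhx58, a regulator of the other sensors, was the one lower. For Dhx58 the floxed libraries gave 8.21, 6.52 and 9.35 CPM on chow and 4.60, 3.75 and 4.53 CPM on HFD, and the knockout libraries 8.98, 5.21 and 6.43 CPM on chow and 5.09, 5.29 and 5.56 CPM on HFD. Its log2 fold change was -0.91 (SE 0.18, adjusted p = 0.0062) in floxed and -0.37 (SE 0.18, adjusted p = 0.22) in knockout mice. Ifih1, the sensor of long double-stranded RNA, gave -0.22 (SE 0.12, adjusted p = 0.24) in floxed and -0.31 (SE 0.12, adjusted p = 0.13) in knockout mice. Ddx58, the sensor RIG-I, ran from 41.8 to 55.0 CPM over all libraries and gave -0.02 (SE 0.09, adjusted p = 0.91) in floxed and 0.00 (SE 0.09, adjusted p = 0.99) in knockout mice. Cxcl10, a chemokine that draws T cells, fell short of the threshold with -0.86 (SE 0.33, adjusted p = 0.095) in floxed and -1.0 (SE 0.34, adjusted p = 0.079) in knockout mice, at 0.731 to 3.09 CPM.

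**Figure D3:**
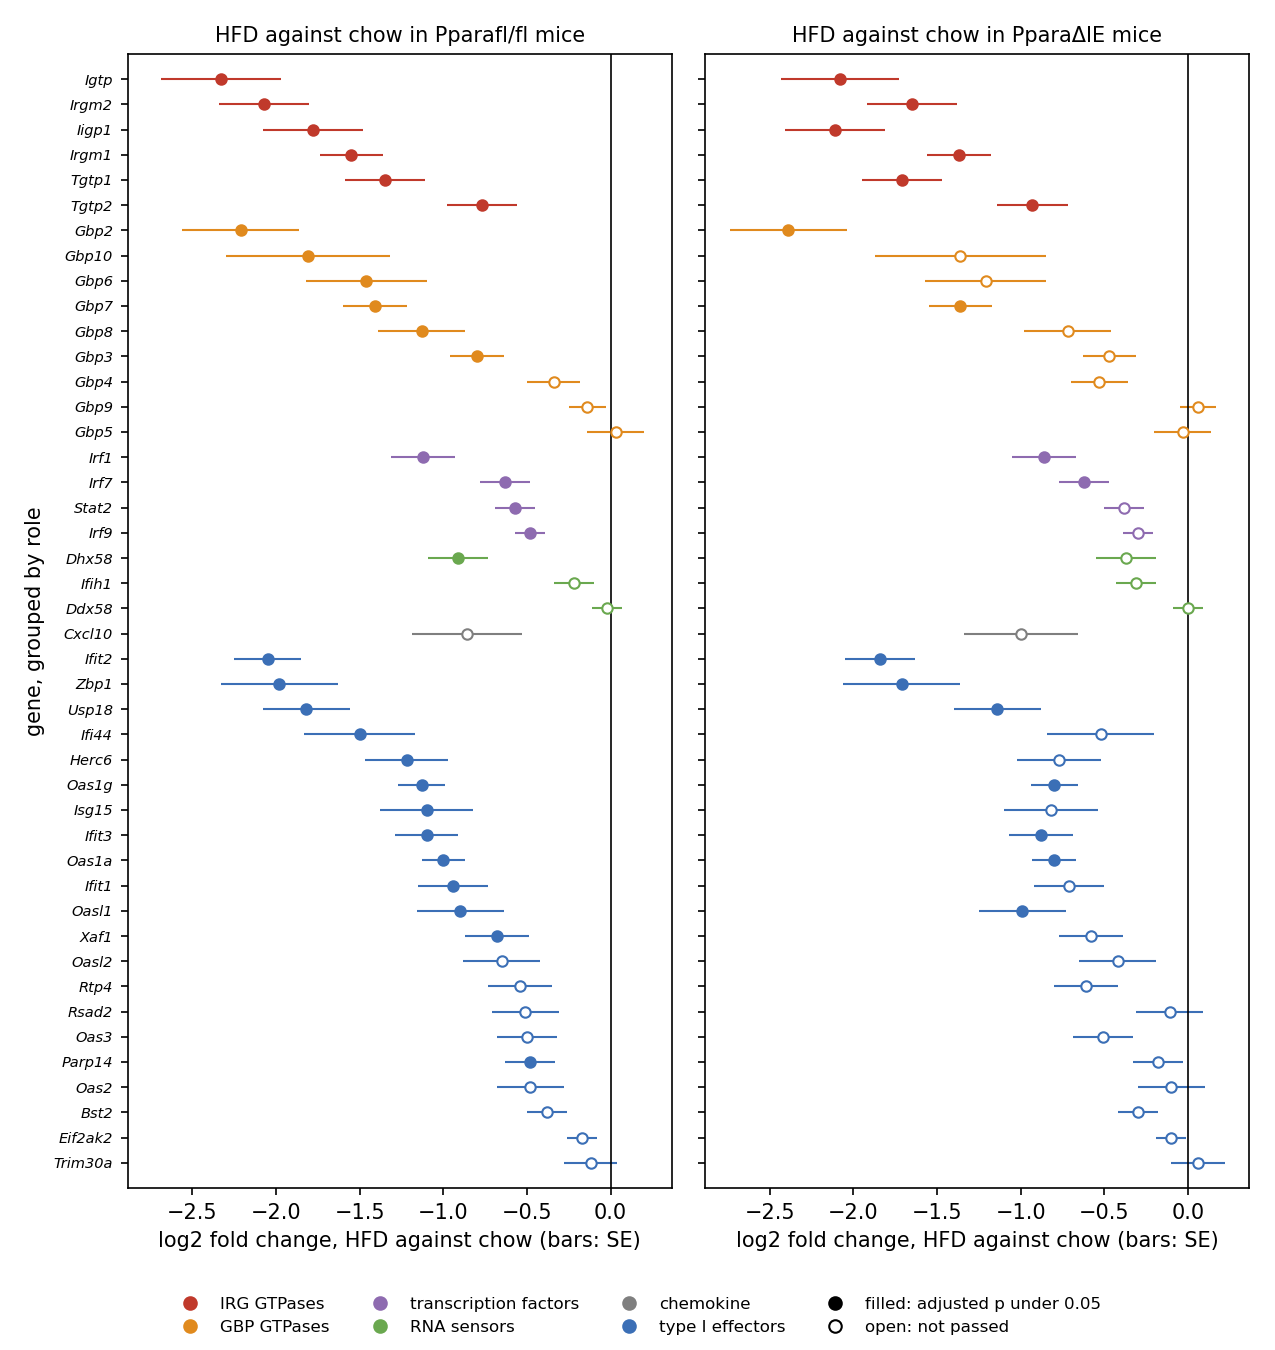
Fitted log2 fold change, HFD against chow, of the 44 members with SE, floxed (Pparafl/fl) on the left and knockout (PparaΔIE) on the right; filled points passed at adjusted p under 0.05. All IRG points are filled in both panels, and 30 points are filled on the left against 17 on the right.

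Levels per length, the mean CPM per kilobase of annotated exon, also changed order. In floxed chow libraries Irf1 led at 74.2, followed by Igtp at 36.6, Irf7 at 36.0 and Oasl1 at 32.4 CPM per kilobase. In floxed HFD libraries Irf1 stood at 34.2, Irf7 at 23.3, Parp14 at 18.7 and Oasl1 at 17.3, while Igtp stood at 7.29. Gbp10 was lowest in every group, at 0.272 on floxed chow and 0.0771 on floxed HFD.

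The contrast between classes was read in each library from a score, the mean over a class of log2(CPM + 0.5) centred on each gene's mean over 12 libraries. The type I score was 0.39, 0.26 and 0.58 in floxed chow, 0.65, 0 and 0.33 in knockout chow, -0.64, -0.25 and -0.48 in floxed HFD and -0.43, -0.30 and -0.12 in knockout HFD libraries. The GTPase score was 0.55, 0.47 and 0.70, then 0.96, 0.16 and 0.54, then -0.90, -0.35 and -0.62, and then -0.43, -0.62 and -0.47 in the same groups. Both scores gave the chow libraries of each genotype the same order, and in each score every chow library lay above every HFD library.

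GTPase minus type I score was above 0 in all 6 chow libraries, from 0.12 to 0.31. It was at or below 0 in all 6 HFD libraries, from -0.36 to 0, where the pooled SD between libraries of a group was 0.11. Knockout HFD 1 was the HFD library at 0. Because each gene is centred over the 12 libraries, differences above 0 on chow force the HFD differences below 0 on average. The scores have no test, because the classes were chosen with results of these data known.

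**Figure D4:**
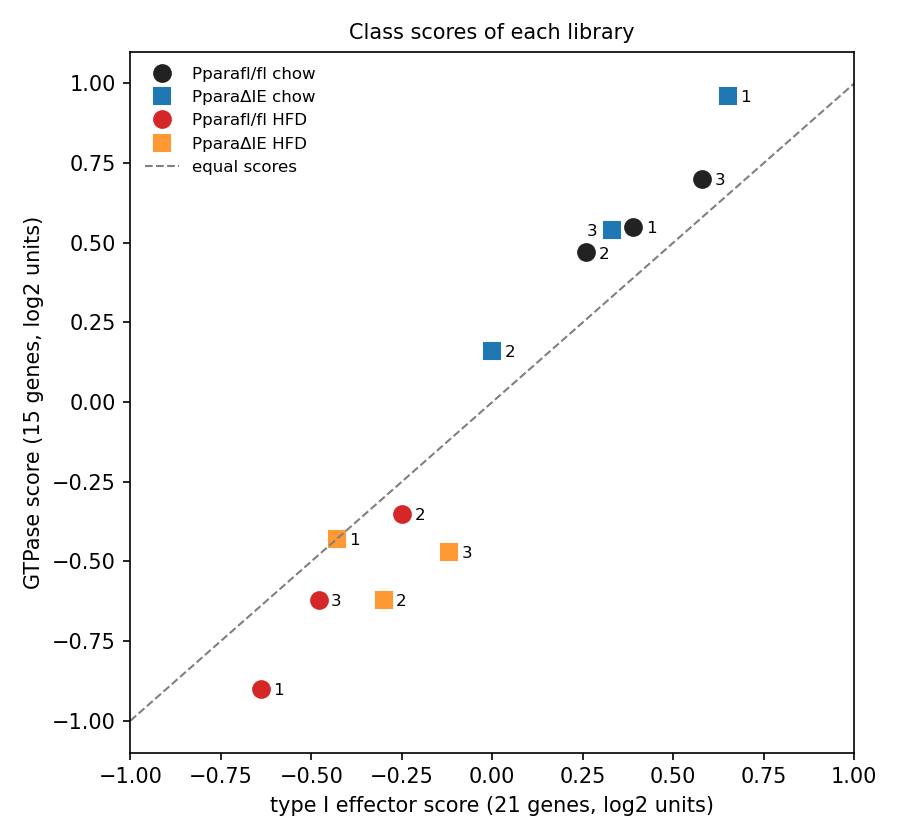
Type I effector score (x axis) and GTPase score (y axis) of each library in log2 units; numbers are library numbers and the dashed line marks equal scores. Chow libraries lie above the line and HFD libraries on or below it, with knockout (PparaΔIE) chow 2 nearest the HFD libraries.

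Between genotypes no member passed. On chow, 0 of 44 members passed, against 0.125% of all genes, 0 had an unadjusted p under 0.05 (edgeR), against 13% of all genes, DESeq2 also called 0, and in none did the groups separate (10.0% of all genes separated with higher and 12.1% with lower knockout values). The median log2 fold change, knockout against floxed, was -0.09 for type I effectors and 0.03 for GTPases. The smallest p among GTPases belonged to Tgtp1, at 0.44 (SE 0.22, adjusted p = 0.41), and Iigp1, at 0.34 (SE 0.28, adjusted p = 0.63), which was -0.03 without knockout chow 1. Among effectors Oas2 gave 0.32 (SE 0.19, adjusted p = 0.5) and Oas1g -0.19 (SE 0.14, adjusted p = 0.56). Irf9 gave -0.12 (SE 0.09, adjusted p = 0.6) and Dhx58 -0.23 (SE 0.18, adjusted p = 0.61). The spread inside the knockout chow group was wide: library 1 was above library 2 for 43 of 44 members, with a median ratio of 1.60.

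On HFD, again 0 of 44 passed, against 0.290% of all genes, 3 (6.82%) had an unadjusted p under 0.05, against 13% of all genes, and DESeq2 called 0. The knockout libraries lay wholly above the floxed libraries for 5 members and below for none, where 9.27% and 8.70% of all genes did so. These 5 were Oas2, Ifi44, Dhx58, Stat2 and Gbp3. Oas2 stood at 1.78, 1.82 and 2.37 CPM on chow and 1.22, 1.81 and 1.25 CPM on HFD in floxed mice, and at 2.59, 2.24 and 2.66 and then 2.28, 2.17 and 2.54 CPM in knockout mice. Oas2 gave 0.70 (SE 0.20, adjusted p = 0.18), Ifi44 0.89 (SE 0.34, adjusted p = 0.29) and Gbp3 0.37 (SE 0.17, adjusted p = 0.36). Dhx58 gave 0.31 (SE 0.19, adjusted p = 0.51), Stat2 0.15 (SE 0.12, adjusted p = 0.64) and Irgm1 0.22 (SE 0.19, adjusted p = 0.67). The class medians were 0.17 for type I effectors and 0.08 for GTPases.

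The 13 members lower on HFD in floxed mice alone were Ifit1, Isg15, Ifi44, Xaf1, Parp14, Herc6, Dhx58, Irf9, Stat2, Gbp3, Gbp6, Gbp8 and Gbp10. The test of the difference between genotypes, the interaction, called 0 of 44 members, against 0.00568% of all genes (1 gene), with 0 at an unadjusted p under 0.05, against 6.34% of all genes, and 0 by DESeq2. These 13 are therefore not shown to respond differently. The interaction was above 0 for 33 of 44 members and for 8632 of all 17602 genes. A value above 0 is a less negative or more positive fitted diet change in knockout mice. Its medians were 0.23 for type I effectors, 0.19 for GTPases and -0.01 over all genes. Over fits that left out 1 library each, the class medians ran from 0.06 to 0.40 and from -0.04 to 0.27. The shared direction of the members was not tested. Ifi44 gave 0.98 (SE 0.46, adjusted p = 0.78), Dhx58 0.54 (SE 0.26, adjusted p = 0.79) and Usp18 0.67 (SE 0.36, adjusted p = 0.82). Irf9 gave 0.17 (SE 0.13, adjusted p = 0.9), Gbp3 0.33 (SE 0.23, adjusted p = 0.88) and Gbp9 0.20 (SE 0.16, adjusted p = 0.91).

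The rest of the pathway was read from lists of its parts. Interferon genes themselves gave few counts: of 20 listed, 15 had no count in any library and none reached 1 CPM. Ifnb1, Ifnl2 and Ifnl3 had 0 counts in all 12 libraries, where 3 counts, the upper limit that a count of 0 allows, are 0.0556 to 0.0892 CPM before TMM scaling. The floxed libraries held 0.251, 0.203 and 0.208 CPM of Ifng on chow and 0.149, 0.0496 and 0.0818 CPM on HFD, the knockout libraries 0.426, 0.132 and 0.272 and 0.0278, 0 and 0.0611 CPM. At no more than 16 counts per library Ifng was too low to test.

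None of the 6 receptor genes passed in any comparison. Ifnar1 ran from 46.8 to 53.3 CPM, Ifnar2 from 5.88 to 7.57, Ifngr1 from 138 to 169, Ifngr2 from 141 to 190.0, Ifnlr1 from 16.5 to 21 and Il10rb from 57.9 to 77.3 CPM over all libraries. In the list of 16 receptors and signalling genes, 3 were lower in both genotypes, among them Socs1, a feedback inhibitor of cytokine signalling, and Irf8, an interferon regulatory factor. On chow, Socs1 reached 13.1, 9.47 and 13.1 CPM among floxed libraries and 14.2, 8.95 and 12.1 CPM among knockout libraries, and on HFD it reached 2.71, 3.57 and 3.35 and 5.70, 3.74 and 4.13 CPM. Socs1 changed by -1.89 (SE 0.20, adjusted p = 0.00023) in floxed and -1.38 (SE 0.20, adjusted p = 0.0019) in knockout mice, and Irf8 by -1.12 (SE 0.15, adjusted p = 0.00082) and -0.94 (SE 0.15, adjusted p = 0.0032). Jak2, a receptor kinase, was higher in floxed mice, by 0.34 (SE 0.09, adjusted p = 0.027).

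Of 13 sensing genes upstream of interferon, none passed in floxed mice, and Mavs (0.34, SE 0.09, adjusted p = 0.031) and Tlr7 (1.20, SE 0.33, adjusted p = 0.039) were higher in knockout mice. Among 39 tested type I targets outside the members, 10 were lower and 2 higher in floxed mice (median -0.27), and 6 and 2 in knockout mice (median -0.15). Levels of Ifit1bl1 were 289, 257 and 343 CPM in floxed chow, 58.9, 91.7 and 74.0 CPM in floxed HFD, 431, 166 and 284 CPM in knockout chow and 73.3, 91.2 and 79.8 CPM in knockout HFD libraries. Ifit1bl1, an Ifit family gene, changed by -1.98 (SE 0.31, adjusted p = 0.0051) and -1.85 (SE 0.31, adjusted p = 0.0099). Slfn5 and Mx2 were lower in floxed mice, with log2 fold changes of -1.08 (SE 0.18, adjusted p = 0.0023) and -0.93 (SE 0.19, adjusted p = 0.006). Ifi203 was higher on HFD in both genotypes, by 0.64 (SE 0.15, adjusted p = 0.013) in floxed and 1.02 (SE 0.15, adjusted p = 0.0019) in knockout mice. Slfn8 passed in knockout mice alone, with 0.40 (SE 0.18, adjusted p = 0.16) in floxed and 0.68 (SE 0.18, adjusted p = 0.032) in knockout mice.

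Among 26 tested targets of interferon gamma outside the members, 18 were lower in floxed and 15 in knockout mice and none was higher, with medians of -0.91 and -0.71. Socs1 is in this list too. Cd274 measured 20.6, 23.2 and 25.1 CPM in floxed chow libraries 1 to 3 and 3.88, 4.42 and 5.15 CPM in floxed HFD libraries, and 29.1, 13.8 and 20.3 CPM in knockout chow and 4.84, 5.88 and 6.42 CPM in knockout HFD libraries. Cd274, the checkpoint ligand PD-L1, changed by -2.36 (SE 0.24, adjusted p = 0.0003) and -1.88 (SE 0.23, adjusted p = 0.0015). Tap1, the peptide transporter of MHC class I, changed by -1.67 (SE 0.20, adjusted p = 0.00093) and -1.43 (SE 0.20, adjusted p = 0.0031). Batf2 was lower in both genotypes too, by -1.05 (SE 0.12, adjusted p = 0.00031) in floxed and -0.69 (SE 0.12, adjusted p = 0.0056) in knockout mice.

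T and natural killer cells are the main source of interferon gamma. The summed level of 20 T and natural killer cell markers was 198 to 233 CPM in floxed chow and 99.6 to 155 CPM in floxed HFD, 118 to 205 CPM in knockout chow and 89.7 to 116 CPM in knockout HFD libraries, and no marker was at 0 in every library. Of 19 tested markers, 3 were lower in floxed (Gzmb, Gzma and Ccl5) and 2 in knockout mice (Gzmb and Gzma). The list's medians were -0.36 and -0.04, with 16 and 11 of 19 fold changes below 0. The diet groups overlapped for 8 and 16 of 19, against 10932 and 13060 of all 17602 genes. Knockout against floxed on chow, all 19 fold changes were below 0, with a median of -0.53, and 0 passed. An unadjusted p under 0.05 (edgeR) was found there for 13 of 19 (68.4%), against 13% of all genes. For Gzmb the floxed libraries gave 35.4, 30.6 and 38.4 CPM on chow and 6.41, 13.9 and 8.45 CPM on HFD, and the knockout libraries 41.6, 19.7 and 29.0 CPM on chow and 5.45, 7.20 and 9.42 CPM on HFD. Cd3e stood at 3.35, 2.95 and 3.77 CPM on chow and 3.26, 4.07 and 4.14 CPM on HFD in floxed mice, and at 2.85, 2.34 and 2.51 and then 2.45, 3.54 and 2.69 CPM in knockout mice. Cd3e, part of the T cell receptor complex, did not pass. Knockout chow 2, at a T and natural killer sum of 118 CPM, held 45.1 CPM of Igtp and 28.9 CPM of Gbp2, where knockout HFD 2 and 3, at sums of 114 and 116 CPM, held 14.8 and 18.6 CPM of Igtp and 7.15 and 10.4 CPM of Gbp2. These sums were alike, but Gzmb was not. It stood at 19.7 CPM in knockout chow 2 and at 7.20 and 9.42 CPM in knockout HFD 2 and 3. The part of these cells in the diet result was not tested. Siglech, a defining marker of plasmacytoid dendritic cells, the main makers of type I interferon, ran from 0.237 to 0.593 CPM over all libraries. The 6 genes listed as markers of these cells summed to 83.7 to 91.6 CPM in floxed chow and 57.2 to 59.9 in floxed HFD, and to 95.2 to 103 in knockout chow and 53.3 to 62.8 in knockout HFD libraries. Of 5 tested, Klk1 was lower in both genotypes, by -0.65 (SE 0.08, adjusted p = 0.00034) and -0.84 (SE 0.08, adjusted p = 8.3e-05), and 4 of 5 had fold changes below 0 in each. The diet groups overlapped for 3 of 5 in each genotype, against 10932 of all 17602 genes in floxed and 13060 in knockout mice. Siglech was among the 3, at -0.18 (SE 0.34, adjusted p = 0.77) in floxed and 0.22 (SE 0.38, adjusted p = 0.77) in knockout mice. At no more than 0.593 CPM, Siglech is a small part of these sums. Of the 6 listed genes, 2 stayed under 1 CPM in every library, so the sums rest mostly on the others. Whether the sums follow plasmacytoid dendritic cells in this tissue was not tested. The summed myeloid markers overlapped between diets in both genotypes.

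Markers of other cells also differed between diets. Of 10 proliferation genes, 5 were lower on HFD in floxed (median -0.42) and 1 in knockout mice (median -0.25). Of 8 endothelial genes, 4 were higher in floxed (median 0.65) and 0 in knockout mice (median 0.31). Of 12 enterocyte genes, Krt8 and Krt19 were lower and Alpi higher in floxed mice, and Cdx2, Krt8, Krt18 and Krt19 were lower in knockout mice. The part of these markers in the members' values was not tested.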

How the data were processed

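The authors deposited 1 table of expected counts per gene for 12 libraries of mouse intestine, made from TruSeq stranded total RNA libraries per the labels' protocols. The submitters' processing notes name Trimmomatic, STAR, Picard, RSEM and mm10; their versions, the annotation release and any use of strand were not given in the sources used here. Of the values, 12.3 to 13.2% per library were not whole, and all were rounded. Symbols came from gene IDs, of which 47224 of 47643 matched.

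All 12 libraries entered 1 fit of 4 group means in edgeR 4.0.16 (R 4.3.3), with TMM scaling, the default low-count filter (17602 genes kept), the robust quasi-likelihood test and Benjamini-Hochberg adjustment over all genes at a threshold of 0.05. CPM values are TMM-scaled. Scores used log2(CPM + 0.5). DESeq2 1.42.0, other filters and scalings, a replicate block, the proximal score as a covariate and leaving out libraries were alternatives. The fits were tested on simulated data. Members, lists and alternatives were chosen with earlier results of these data known. Values in every library are given for members that passed in any comparison, and each comparison names the 2 members with the smallest p in each of 3 role classes. Each list outside the members names up to 3 called genes with the smallest p. Members' transcripts were searched for 50-base stretches shared with other genes. Promoter windows are RefSeq's (GRCm38.p6). One gene of the pathway lists is not reported here.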

Additional observations from a re-analysis of the deposited data

Results flagged for a closer look

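The summed CPM of the 10 smooth muscle markers was set apart because the genotypes differed in opposite directions on the 2 diets. The ratio of knockout to floxed means was 0.864 on chow and 2.04 on HFD. Sums were 67.8 to 69.8 CPM in floxed chow, 52.6 to 67.2 in knockout chow, 37.6 to 74.3 in floxed HFD and 96.3 to 122 in knockout HFD libraries. For the sum this difference was not tested. For the single genes, the interaction in edgeR was above 0 for 10 of 10 (median 1.39), 8 had an unadjusted p under 0.05 and 0 passed, with adjusted p from 0.39 to 0.88. Knockout against floxed on chow, 0 of 10 genes had an unadjusted p under 0.05 (edgeR), with a median of -0.21. On HFD 10 of 10 did, with a median of 1.17, and Synm and Flnc were higher (adjusted p = 0.038 and 0.031, edgeR). The chow side of the opposite directions thus rests on the sums alone. The part of these markers in the values of the 44 members was not tested.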

How the results depend on the processing

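Of the members lower on HFD, 30 in floxed and 17 in knockout mice, counts over fits that each left out 1 library ran from 18 to 33 and from 10 to 28. Class medians then ran from -1.04 to -0.80 (type I effectors) and -1.50 to -1.32 (GTPases) in floxed, and from -0.84 to -0.48 and -1.56 to -1.11 in knockout mice. Called in all 12 such fits were 18 of 30 and 10 of 17 members. Without both floxed chow 1 and knockout chow 3 the counts were 16 and 6, and with the proximal score 1 and 11, with floxed medians of -0.44 and -0.92. DESeq2 called 33 and 29. Iigp1 on chow, knockout against floxed, ran from -0.03 (without knockout chow 1) to 0.60 (without knockout chow 2) around 0.34. The causes were not tested. In the genotype and interaction comparisons 0 members were called under every alternative run.

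With the replicate number as a block, 27 and 15 members were lower on HFD, 0 were called in the genotype and interaction comparisons, and medians were -0.89 and -1.40 in floxed and -0.61 and -1.35 in knockout mice. Same-numbered libraries correlated at -0.111 to 0.143, so the numbers are not shown to pair samples, and 1 of 3 libraries per comparison correlated best with its own number. With 3 libraries a group, Gbp10 (as few as 2 counts) and Ifng (0 to 16 counts) are limited by depth.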
